A study of Mus musculus with 6 samples.

Results

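The TELO2 complex and the PI3K-related kinases were followed through an RNA immunoprecipitation of CPEB4 in mouse muscle stem cells. The set comprised 10 genes of the 55376 in the count table: Telo2, Tti1 and Tti2 of the TTT complex, the ATPases Ruvbl1 and Ruvbl2, and the kinases Mtor, Atm, Atr, Prkdc and Smg1. Telo2 was chosen by its measured counts in CPEB4 RIP and IgG RIP, since it had the widest fitted increase over IgG RIP among genes that averaged at least 10 CPM (counts scaled to library size). The other 9 are its known partners and clients. All 10 were among the 18054 genes that passed the filter on low counts.

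PI3K-related kinases are very large protein kinases that govern growth, genome repair and RNA quality control. They depend on a chaperone relay for their stability. TELO2, TTI1 and TTI2 form the TTT complex, which binds newly made kinases and works with the chaperone HSP90 and the R2TP complex, whose ATPases are RUVBL1 and RUVBL2. Loss of TELO2 in mouse cells lowers the amount of all members of the kinase family. In muscle stem cells, mTOR complex 1 is known for its part in the exit from quiescence. CPEB4 is an RNA-binding protein that recognises the cytoplasmic polyadenylation element of messages and regulates their translation.

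The groups were CPEB4 RIP, in which RNA was recovered with an antibody to CPEB4, IgG RIP, in which a nonspecific antibody was used, and input RNA. Each group held 2 libraries, and all 6 came from muscle stem cells sorted from C57BL/6 mice aged 3 months, with no genetic change or treatment named in the labels. Libraries were made by SMART-seq2, which copies messages into cDNA over their whole length from very little RNA. The design text calls the CPEB4 RIP libraries biological replicates but names no animals, so the p-values reflect spread among these particular libraries, part of which may be technical.

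Total counts were 12679621 and 20843042 in the CPEB4 RIP libraries, 9018323 and 14225502 in the IgG RIP libraries, and 16314360 and 12426827 in input. The stem cell markers Pax7, Myf5 and Myod1 were present in all 6 libraries, with Pax7 between 151 and 290 CPM, the count scaled to library size by TMM. IgG RIP replicate 2 stood apart, with 9.998% of the tested genes at 0 counts, against 1.91% in IgG RIP replicate 1. The corresponding shares were 1.97% and 2.80% in CPEB4 RIP and 0.0720% and 0.255% in input. Pearson r of log2 CPM between replicates was 0.873 in IgG RIP, 0.981 in CPEB4 RIP and 0.975 in input. Each IgG RIP library correlated less with its replicate than with any library of the other groups. Of the 9 stem cell markers, 0 were called higher and 1 lower over IgG RIP, and 2 higher and 2 lower over input. Of all tested genes, 4.79% were called higher and 3.42% lower over IgG RIP, and 8.0% and 4.70% over input. These shares are also the background for the marker counts below. Vcam1 fell by 0.87 over IgG RIP and by 1.18 over input on the log2 scale, and Calcr fell by 1.38 over input. Sdc4 rose by 0.52 and Chrdl2 by 0.88 over input, and 7 of the 9 were fitted above input. The 9 summed to 62876 and 68742 CPM in CPEB4 RIP, 62374 and 61051 CPM in IgG RIP, and 46009 and 47240 CPM in input. Most of that sum was Sdc4, at 57500 and 61956 CPM in CPEB4 RIP and 41597 and 41846 CPM in input. Some markers of several other cell types were higher in CPEB4 RIP. The summed level of the 5 erythroid markers was 657 and 327 CPM in CPEB4 RIP, 86.8 and 147 CPM in IgG RIP, and 109 and 179 CPM in input, with none of the 5 at 0 in any library and 3 of the 5 called higher against each background. The 5 fibro-adipogenic markers summed to 1673 and 1355 CPM in CPEB4 RIP. Their sums were 789 and 1101 CPM in IgG RIP, and 572 and 740 CPM in input. Of the 5, 1 was called higher over IgG RIP and 2 over input, while Pdgfra (-0.57) and Pi16 (-0.04) were fitted below input. The 5 myofibre markers summed to 222 and 172 CPM in CPEB4 RIP, 104 and 137 CPM in IgG RIP, and 109 and 165 CPM in input, with 2 of the 5, Tnnt3 (1.39 and 1.04) and Myl1 (1.68 and 1.27), called higher over IgG RIP and over input. Without calls, the myofibre marker Myh4 was fitted below both (-1.28 and -0.88), and Acta1 (0.49 and 0.24) and Ckm (0.09 and 0.63) above both. Of 4 leukocyte markers tested, S100a8 was called higher over both (2.54 and 1.85). Lyz2 was fitted above both (0.41 and 0.96), and Ptprc (-1.70 and -0.76) and Cd68 (-0.07 and -0.22) below both, without calls. Of 5 endothelial and 4 smooth muscle and pericyte markers, 0 were called over IgG RIP. All 4 of the latter were fitted below IgG RIP. Over input, 1 endothelial marker was higher and 1 lower. S100a8 and the 3 called erythroid genes are short, at length percentiles of 7.75 to 9.60 among tested genes. The groups are immunoprecipitations and input RNA, so these marker values describe recovered messages and do not count cells. Whether messages of other cell types had a part in the values below was not tested.

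The 10 messages together held a smaller share of the counts in CPEB4 RIP than in either background. Their share was 0.0234% and 0.0230% in the CPEB4 RIP libraries, 0.0344% and 0.0344% in the IgG RIP libraries, and 0.0365% and 0.0411% in input. Most of these counts were those of Ruvbl1, Ruvbl2 and Smg1, at 8226, 6654 and 6307 over the 6 libraries. The next message, Tti2, had 1744, so the share mainly describes those larger messages. Telo2 was the one message of the 10 whose libraries were all higher in CPEB4 RIP than in both IgG RIP and input.

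Telo2 encodes the kinase-binding subunit of the TTT complex. Its gene lies on chromosome 17, 25099569 to 25115974 (GRCm38, the mm10 build). It had 257 and 314 counts in CPEB4 RIP, 19 and 10 counts in IgG RIP, and 244 and 96 counts in input. On the scaled level this was 21.3 and 16.5 CPM in CPEB4 RIP, 2.03 and 0.755 CPM in IgG RIP, and 13.3 and 7.50 CPM in input. Both CPEB4 RIP libraries were above both input libraries, and both input libraries were above both IgG RIP libraries. The 95% exact Poisson interval of the lower CPEB4 RIP library was 14.7 to 18.4 CPM and that of the higher input library 11.7 to 15.04 CPM, so these neighbours met within counting error. Intervals cover counting error only, since PCR reads without molecular identifiers are not independent molecules.

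Tti1 and Tti2 encode the partners that hold TELO2 in the complex. Tti1 (chromosome 2, 157981803 to 158028475) was sparse, at 29 and 23 counts in CPEB4 RIP, 27 and 0 counts in IgG RIP, and 106 and 65 counts in input. Its level was 2.40 and 1.21 CPM in CPEB4 RIP, 2.88 CPM and 0 in IgG RIP, and 5.76 and 5.07 CPM in input. The 0 in IgG RIP replicate 2 allows a level of up to 0.227 CPM, from 3 counts. Input was highest, and the CPEB4 RIP libraries lay between the widely separated IgG RIP libraries.

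Tti2 (chromosome 8, 31150316 to 31164703) was steadier between replicates. It stood at 15.7 and 15.03 CPM in CPEB4 RIP, 26.8 and 23.8 CPM in IgG RIP, and 23.2 and 21.5 CPM in input. The CPEB4 RIP libraries were the lowest, without overlap with either background. Telo2 and its 2 partners thus did not share an order of groups.

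Set per length of the gene model, the trio differed in make-up between groups. In FPKM (fragments per kilobase of the gene model, divided by a total of the library), Telo2 made up 45.5% and 42.6% of the trio's sum in the CPEB4 RIP libraries, 4.71% and 2.34% in the IgG RIP libraries, and 24.1% and 16.3% in input. Tti2 made up 44.5% and 51.4% in the CPEB4 RIP libraries, 82.3% and 97.7% in the IgG RIP libraries, and 55.7% and 62.2% in input. In FPKM, Telo2 was therefore near Tti2 in CPEB4 RIP and below it in both backgrounds. These shares include the Telo2 values that chose the gene, and were not tested. The trio's summed level was 39.4 and 32.7 CPM in CPEB4 RIP, 31.7 and 24.5 CPM in IgG RIP, and 42.2 and 34.1 CPM in input. The sums of CPEB4 RIP and input overlapped, and those of IgG RIP were lowest.

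**Figure D1:**
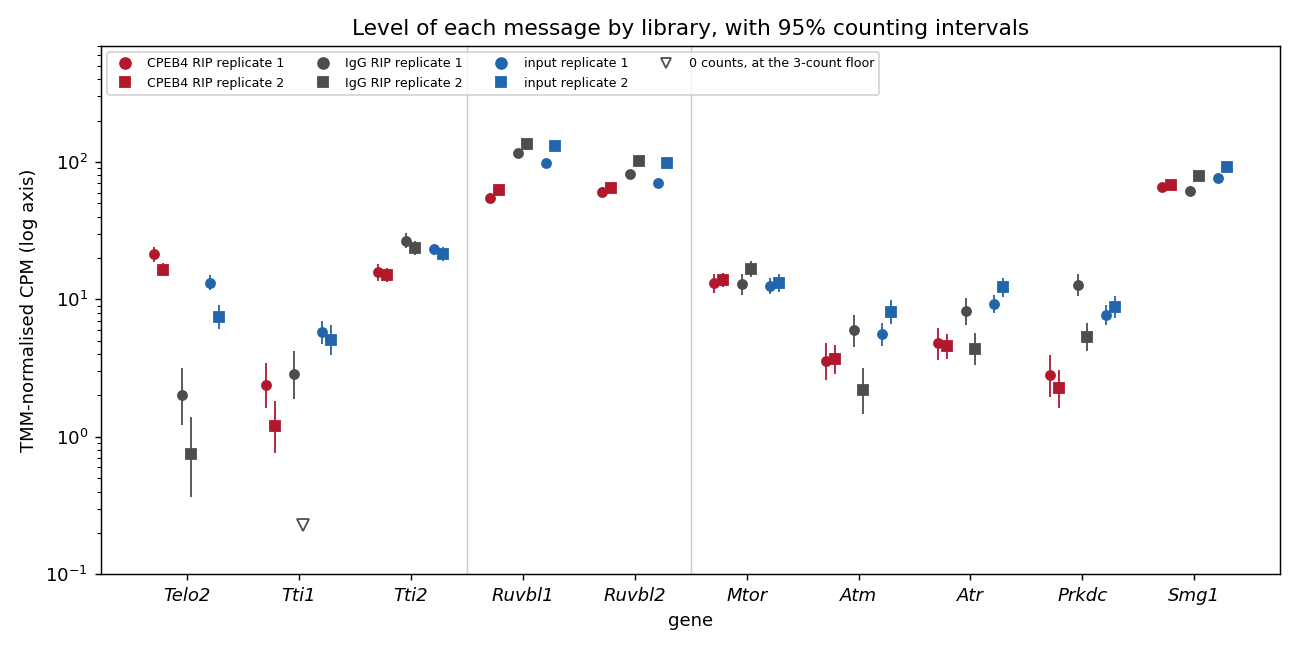
Level of each of the 10 messages in each library, as TMM-normalised CPM on a log axis, with 95% exact Poisson intervals; the open triangle marks Tti1 in IgG RIP replicate 2, which had 0 counts, at its floor of 3 counts. Telo2 is the gene whose CPEB4 RIP points, 21.3 and 16.5 CPM, lie above its points in both backgrounds without overlap.

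Ruvbl1 and Ruvbl2 encode ring-forming ATPases that serve the R2TP chaperone and also chromatin remodellers such as INO80. Ruvbl1 (chromosome 6, 88465409 to 88497566) had 55.2 and 62.6 CPM in CPEB4 RIP, 115 and 135 CPM in IgG RIP, and 98.5 and 132 CPM in input. The CPEB4 RIP libraries were below all 4 others. Ruvbl2 (chromosome 7, 45421896 to 45436171) had 60.9 and 64.6 CPM in CPEB4 RIP, 81.8 and 102 CPM in IgG RIP, and 70.9 and 98.9 CPM in input. It had the same order at smaller distances, and IgG RIP and input overlapped for both ATPases.

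The 2 ATPase messages kept unequal levels per length. Ruvbl1 made up 58.1% and 59.7% of the pair's summed FPKM in the CPEB4 RIP libraries, 68.3% and 66.9% in the IgG RIP libraries, and 68.0% and 67.1% in input. Ruvbl1 was the larger part of the pair in all 6 libraries, and its part was smallest in the CPEB4 RIP libraries.

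Of the kinases, Mtor (chromosome 4, 148448582 to 148557685), the catalytic subunit of the growth-regulating mTOR complexes, was close to level across groups. It had 13.1 and 13.9 CPM in CPEB4 RIP, 12.9 and 16.6 CPM in IgG RIP, and 12.6 and 13.2 CPM in input. The libraries of all 3 groups overlapped. Smg1 (chromosome 7, 118131308 to 118244437), the kinase that phosphorylates UPF1 in nonsense-mediated decay, had 66.0 and 68.0 CPM in CPEB4 RIP, 61.9 and 79.3 CPM in IgG RIP, and 76.7 and 91.6 CPM in input. Its CPEB4 RIP libraries lay between the IgG RIP libraries and below the input libraries.

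The kinases of the DNA damage response were low in counts. Atm (chromosome 9, 53437122 to 53536828), which responds to double-strand breaks, had 3.56 and 3.68 CPM in CPEB4 RIP, 5.97 and 2.19 CPM in IgG RIP, and 5.60 and 8.12 CPM in input. Atr (chromosome 9, 95857597 to 95953217), which responds to stalled replication, had 4.81 and 4.57 CPM in CPEB4 RIP, 8.21 and 4.38 CPM in IgG RIP, and 9.30 and 12.3 CPM in input. For both, input was above CPEB4 RIP and the IgG RIP libraries stood on either side of the CPEB4 RIP libraries.

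Prkdc (chromosome 16, 15637444 to 15842239), the catalytic subunit of the DNA-dependent protein kinase of end joining, had the widest separation below the backgrounds. It had 34 and 43 counts in CPEB4 RIP, 120 and 71 counts in IgG RIP, and 142 and 113 counts in input. Its level was 2.82 and 2.26 CPM in CPEB4 RIP, 12.8 and 5.36 CPM in IgG RIP, and 7.72 and 8.82 CPM in input. Both CPEB4 RIP libraries were below the other 4.

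Per length, Smg1 was the most abundant of the 5 kinase messages in every library, at 57.2% and 57.5% of their summed FPKM in the CPEB4 RIP libraries, 44.9% and 57.5% in the IgG RIP libraries, and 53.6% and 53.8% in input. Mtor followed, at 26.9% and 27.8% in the CPEB4 RIP libraries, 22.2% and 28.6% in the IgG RIP libraries, and 20.9% and 18.4% in input. Prkdc made up 4.44% and 3.48% in the CPEB4 RIP libraries, 16.9% and 7.07% in the IgG RIP libraries, and 9.81% and 9.43% in input. The order of the remaining kinases below Mtor was not the same in all libraries.

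**Figure D2:**
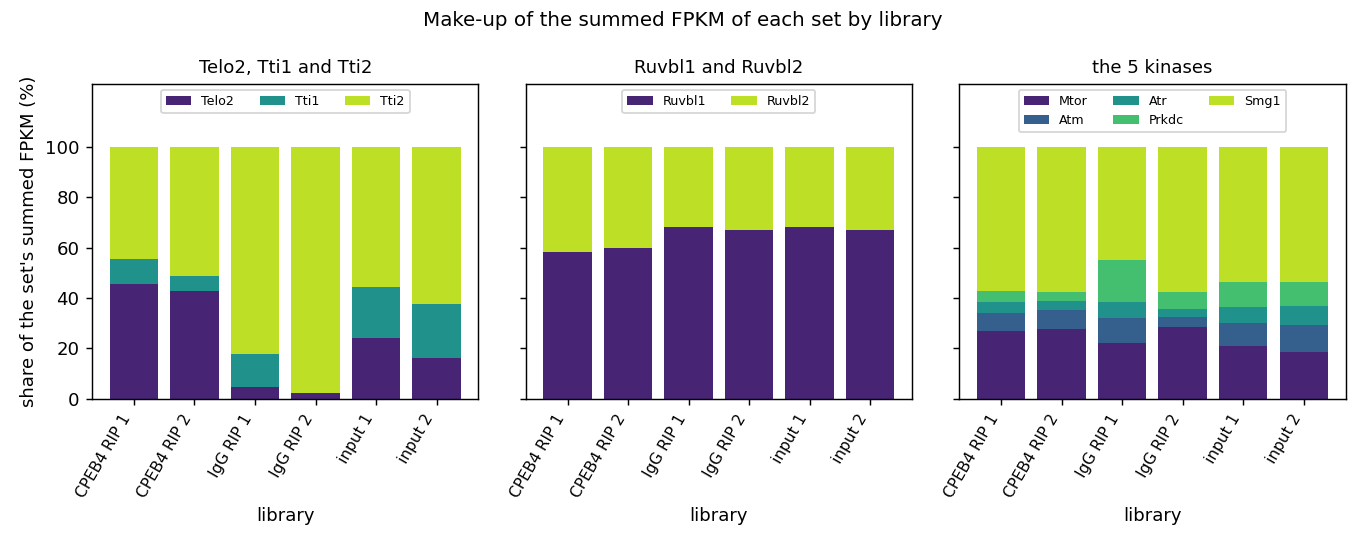
Make-up of the summed FPKM of the TTT trio, the ATPase pair and the 5 kinases in each library, in percent of each set's sum. The Telo2 part of the trio is 45.5% and 42.6% in CPEB4 RIP and under 5% in both IgG RIP libraries.

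Setting CPEB4 RIP against IgG RIP asks which messages the antibody to CPEB4 brought down in excess of a nonspecific antibody. Because this comparison chose Telo2, the values of the set in it are given as a description. The log2 fold change of Telo2 was 3.80 (SE 0.54), a fitted 13.9-fold difference, with means of 18.9 ± 3.39 CPM in CPEB4 RIP and 1.39 ± 0.899 CPM in IgG RIP (SD, n = 2 each). The gene sits just inside the level limit of its rule, at a mean of 10.2 CPM over the 6 libraries against a limit of 10 CPM. Wider fitted increases belonged to 198 tested genes, of which 47 passed the test, and 0 of the 198 averaged at least 10 CPM. The next genes above the limit were Gm28437 (2.95, at a mean of 66.6 CPM) and the nucleoredoxin gene Nxn (2.94, at 14.97 CPM).

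The partners and clients of Telo2 had lower fitted fold changes over IgG RIP. For those that averaged at least 10 CPM, the rule that chose Telo2 fixed this in advance. The fitted log2 fold change was 0.36 (SE 1.31) for Tti1, -0.72 (SE 0.22) for Tti2, -1.09 (SE 0.20) for Ruvbl1 and -0.55 (SE 0.21) for Ruvbl2. Among the kinases it was -0.13 (SE 0.27) for Mtor, -0.16 (SE 0.56) for Atm, -0.42 (SE 0.42) for Atr, -1.83 (SE 0.50) for Prkdc and -0.08 (SE 0.19) for Smg1. The 95% interval of Tti1 ran from -2.69 to 3.41, and without IgG RIP replicate 2, the library with 0 counts, its value was -0.58. The median of the 10 was -0.29, against -0.07 over all tested genes.

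Of the 10 messages, 1 was called higher and 1 lower in CPEB4 RIP at the 0.05 threshold of edgeR's adjusted p, where 8.21% of all tested genes were called (4.79% higher and 3.42% lower). Libraries of the groups did not overlap for 1 message above IgG RIP and 4 below it, against 29.4% and 25.5% of all tested genes. Nothing is read from these counts, since the comparison was used to choose Telo2. The call of Telo2 itself was lost without CPEB4 RIP replicate 1 or replicate 2, although its fold change stayed at 3.80 and 4.02. Without IgG RIP replicate 1 its fold change was 4.80, and without IgG RIP replicate 2 it was 3.34.

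**Figure D3:**
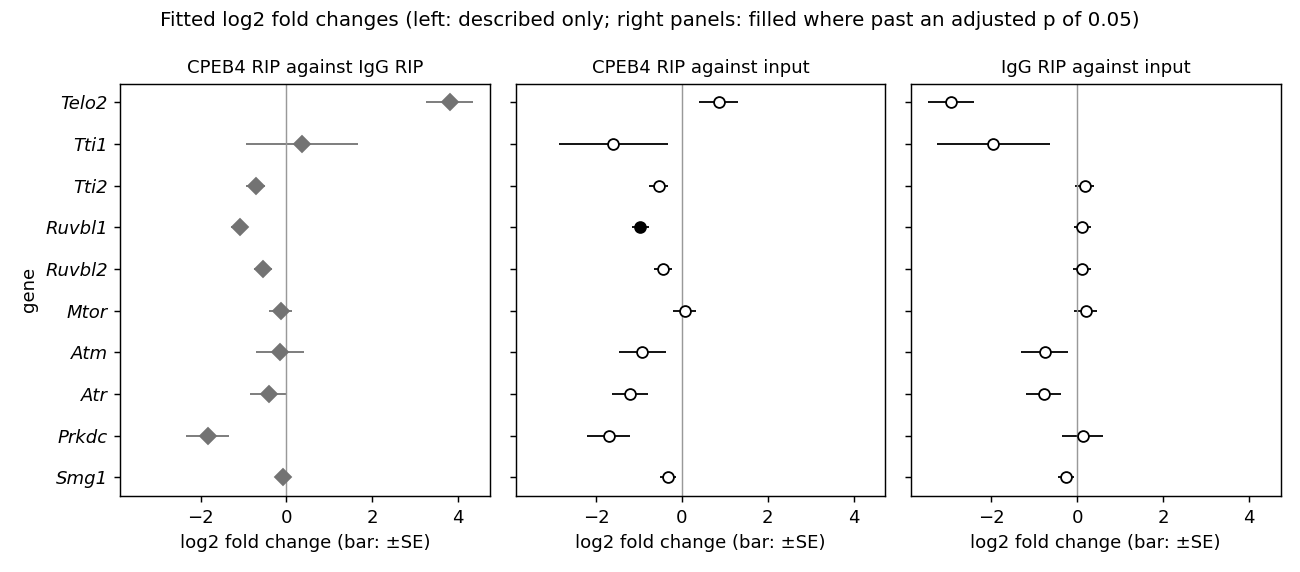
Fitted log2 fold changes of the 10 messages in the 3 comparisons, with bars of 1 SE; the left panel is a description, and in the other 2 panels a filled point marks an adjusted p under 0.05. Telo2 lies at 3.80 over IgG RIP, 0.86 over input and -2.94 for IgG RIP against input.

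Input RNA is the second background. It was not part of the rule, but the CPEB4 RIP libraries are the same ones that chose Telo2. Against input, the CPEB4 RIP libraries gave no call for Telo2 and a lower level of Ruvbl1. The log2 fold change of Telo2 was 0.86 (SE 0.46, 95% interval -0.21 to 1.93, edgeR adjusted p = 0.271). Its mean was 18.9 ± 3.39 CPM in CPEB4 RIP and 10.4 ± 4.08 CPM in input (SD, n = 2 each). Both CPEB4 RIP libraries were above both input libraries, and the fitted difference was within the spread that the model allows.

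That spread is shared with the IgG RIP libraries. With only the CPEB4 RIP and input libraries in the fit, Telo2 stood at 0.80 with an edgeR adjusted p of 0.0275, and 7 of the other messages were called lower. In that fit 43.3% of the tested genes were called (20.9% higher and 22.4% lower). Without IgG RIP replicate 1 or replicate 2, the edgeR adjusted p of Telo2 was 0.00333 and 0.00325, and 1 message was called higher and 5 lower, where 38.2% and 37.6% of the tested genes were called. Whether Telo2 passes over input therefore turns on which libraries enter the estimate of spread.

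Ruvbl1 fell by 0.97 on the log2 scale against input (SE 0.20, edgeR adjusted p = 0.0203), with means of 58.9 ± 5.27 CPM in CPEB4 RIP and 115 ± 23.6 CPM in input (SD, n = 2 each). This was the only call among the 10 messages, where 12.7% of all tested genes were called (4.70% called lower), so the share of calls was near the background. The call of Ruvbl1 was lost without CPEB4 RIP replicate 1 (-0.76, edgeR adjusted p = 0.230), CPEB4 RIP replicate 2 (-0.997, 0.218) or input replicate 2 (-0.72, 0.120), and with a correction for gene length (-0.93, 0.111).

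The other messages did not pass against input. The lowest fitted value was that of Prkdc, at -1.71 (SE 0.50, edgeR adjusted p = 0.0643). The value was -1.59 (SE 1.28, 0.452) for Tti1, -0.54 (SE 0.22, 0.164) for Tti2 and -0.43 (SE 0.21, 0.230) for Ruvbl2. Among the remaining kinases it was -0.92 (SE 0.55, 0.324) for Atm, -1.20 (SE 0.42, 0.109) for Atr and -0.33 (SE 0.19, 0.304) for Smg1. Mtor stood at 0.06 (SE 0.27, adjusted p = 0.904), with a 95% interval of -0.56 to 0.69. Libraries did not overlap for 8 messages below input and 1 above it, against 37.6% and 34.4% of all tested genes. The median of the 10 was -0.73, against -0.06 over all tested genes.

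The comparison of IgG RIP with input describes what the nonspecific antibody recovered. Telo2 was low in IgG RIP, at -2.94 against input (SE 0.54, 95% interval -4.19 to -1.70, edgeR adjusted p = 0.179), a 7.69-fold lower fitted level that did not pass. Only 2.32% of the tested genes had a lower value. EdgeR's test called 0 of 18054 genes in this comparison (0.00%), while 14.1% had an unadjusted p under 0.05 and the DESeq2 Wald test called 706. With DESeq2 the adjusted p of Telo2 was 4.62e-05 at -2.97. The fold change of Telo2 was -3.91 without IgG RIP replicate 1 and -2.44 without IgG RIP replicate 2. The IgG RIP libraries are those of the comparison that chose Telo2, so this low value is not separate evidence for its fold over IgG RIP. The p-values of Telo2 against input carry the same choice and are given as a description.

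The other messages were nearer to input in IgG RIP. The log2 fold change was -1.95 (SE 1.31) for Tti1, -0.76 (SE 0.56) for Atm and -0.78 (SE 0.42) for Atr. It was 0.18 (SE 0.22) for Tti2, 0.12 (SE 0.20) for Ruvbl1 and 0.12 (SE 0.21) for Ruvbl2. For Mtor it was 0.20 (SE 0.27), for Prkdc 0.13 (SE 0.47) and for Smg1 -0.25 (SE 0.19). Libraries did not overlap for 1 message above input and 3 below it, against 21.4% and 20.7% of all tested genes. The median of the 10 was -0.07, against 0.05 over all tested genes.

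Tmem204 and Ptx4, which lie near Telo2 on chromosome 17, did not share its pattern. No other gene of the RefSeq table overlaps Telo2. Tmem204 (25057702 to 25081114) had 18.1 and 9.40 CPM in CPEB4 RIP, 8.96 and 19.2 CPM in IgG RIP, and 13.3 and 12.2 CPM in input. Ptx4 (25120697 to 25125293), on the other side, had 3.40 and 2.21 CPM in CPEB4 RIP, 2.77 CPM and 0 in IgG RIP, and 2.45 and 2.58 CPM in input. The groups of both genes overlapped, and IgG RIP replicate 2 had 0 counts for Ptx4 as it had for Tti1. Both genes were picked by start position, so a longer gene that ends nearer to Telo2 than Tmem204 could have been passed over.

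Several other messages of the set lie over other genes, and none of the sources used here says whether counting used the strand. Tti2 overlaps Mak16, which had 8849 counts over the 6 libraries against 1744 for Tti2. Mtor contains Angptl7, with 3257 counts against 1164 for Mtor. Tti1 meets Rprd1b at its end, and Ruvbl2 overlaps Gys1, which had 324 counts against 6654. These are overlaps of whole gene spans, and whether exons overlap was not examined. Without the strand, reads from a stretch that both genes of a pair share cannot be told apart.

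The messages whose level followed that of Telo2 most closely were Aup1, Zfp746, Wipi1, Zdhhc1 and Meis3. Likeness was Pearson r of log2 CPM over the 6 libraries, among 9398 tested genes that averaged at least 5 CPM, and it was 0.994, 0.989, 0.986, 0.984 and 0.980 in that order. The 6 libraries fall into the same 3 groups for all genes, so these values describe a shared order of groups. Aup1, whose protein acts at the endoplasmic reticulum and lipid droplets, had 56.9 and 55.5 CPM in CPEB4 RIP, 32.8 and 28.9 CPM in IgG RIP, and 52.4 and 43.7 CPM in input. Meis3, a homeobox gene, had 13.3 and 13.6 CPM in CPEB4 RIP, 0.213 CPM and 0 in IgG RIP, and 7.61 and 7.50 CPM in input. No partner or client was among the 5. Of the set, Tti1 was nearest at r = 0.65, followed by Atm at 0.30 and Atr at 0.07. The others had negative values, down to -0.79 for Ruvbl2.

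Gene length moved with recovery in these libraries. When tested genes were split evenly into short, middle and long gene models, the median log2 fold change for CPEB4 RIP against IgG RIP was 0.23 for short, -0.07 for middle and -0.26 for long models. Against input the medians were 0.32, -0.12 and -0.30 in the same order. Of the set, 7 messages have long models, Tti1 and Ruvbl2 middle ones and Ruvbl1 a short one. The Telo2 gene model is 2.08 times the median length, and those of Atr and Smg1 are 6.15 and 6.24 times. Telo2, chosen by its value over IgG RIP, stood there at 3.80 among long models whose median was -0.26. Ruvbl1 was -1.09 among short models whose median was 0.23, at percentile 18.2 of all tested genes. With a correction for gene length Telo2 stood at 3.97 over IgG RIP and 1.20 over input. Under that correction edgeR called 0 genes over IgG RIP, and Smg1 turned to 0.47 over IgG RIP and 0.36 over input.

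**Figure D4:**
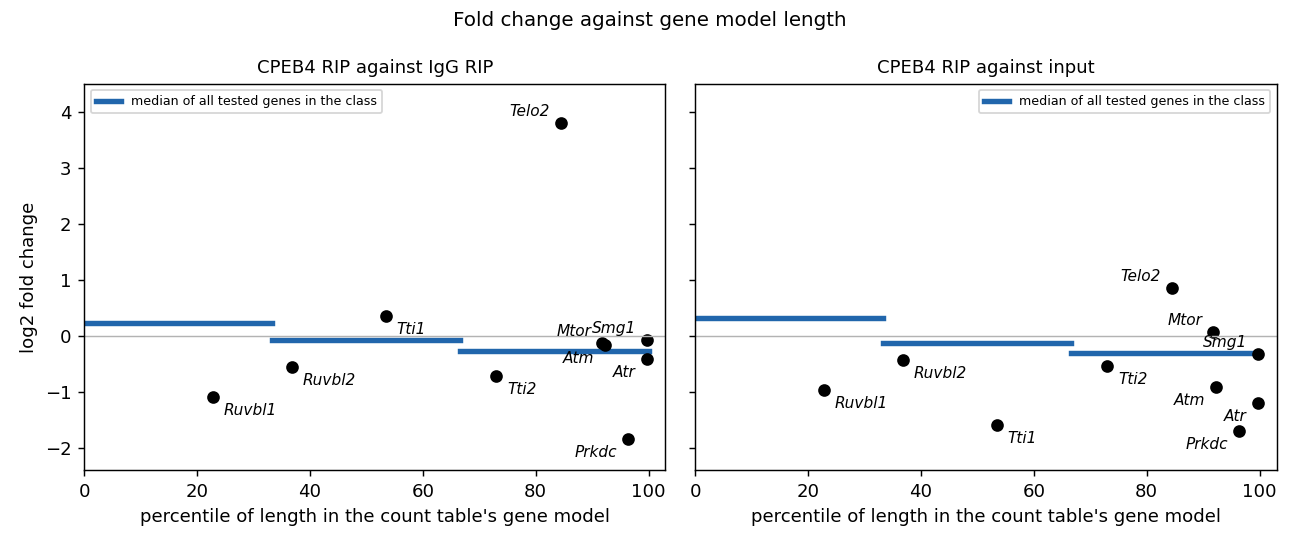
Log2 fold change of each message against the percentile of its gene model length among tested genes, for CPEB4 RIP against IgG RIP and against input; bars give the median of all tested genes of the short, middle and long gene models. Medians fall with length. Over IgG RIP, Telo2 lies at 3.80, the value by which it was chosen, and Ruvbl1 at -1.09.

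The chaperone machinery around the set held members on both sides. Of 11 genes of R2TP, its prefoldin-like module and HSP90, 4 were higher and 0 lower in CPEB4 RIP against input, where 8.0% of all tested genes were called higher and 4.70% lower. Against IgG RIP 0 were higher and 1 lower, where the shares were 4.79% and 3.42%. Their median was 0.37 over input and 0.15 over IgG RIP. In IgG RIP all 11 were also fitted above input, at a median of 0.45, with 0 called by edgeR and 3 by DESeq2. Pfdn2, a prefoldin subunit, had 235 and 281 CPM in CPEB4 RIP, 161 and 201 CPM in IgG RIP, and 121 and 124 CPM in input. Its log2 fold change over input was 1.07 (SE 0.17, edgeR adjusted p = 0.00891). Uri1, the prefoldin-like scaffold, stood at 1.13 over input (SE 0.27, adjusted p = 0.0323) and at -0.31 over IgG RIP (adjusted p = 0.472). Pfdn6 (0.82) and Pih1d1 (0.77), the R2TP subunit that recognises phosphorylated TELO2, were the other members higher over input, and both were picked once their values were known. The inducible HSP90 gene Hsp90aa1 fell by 0.95 on the log2 scale against IgG RIP (SE 0.11, edgeR adjusted p = 0.00823), with 3134 and 3340 CPM in CPEB4 RIP against 6424 and 6115 CPM in IgG RIP. The 4 calls over input became 0 without CPEB4 RIP replicate 2 or input replicate 1, 1 without CPEB4 RIP replicate 1 or input replicate 2, and 6 without either IgG RIP replicate. With the correction for gene length they became 0, where 661 genes were still called, and Pfdn6, Pfdn2 and Pih1d1 have short gene models (length percentiles 13.96, 23.2 and 24.2 of the tested genes). The call over IgG RIP was lost without CPEB4 RIP replicate 1 or replicate 2.

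Modifiers of the TTT complex gave 1 call. Of 5 genes, 1 was higher over input, where 8.0% of all tested genes were. This was the casein kinase 2 subunit gene Csnk2b (0.65, SE 0.17, edgeR adjusted p = 0.0433). Over IgG RIP 0 were called by DESeq2 or by edgeR, which called 8.21% of all tested genes. The list's median was 0.22 over IgG RIP and 0.16 over input. Casein kinase 2 phosphorylates TELO2. Csnk2b had 69.2 and 70.2 CPM in CPEB4 RIP, 56.6 and 52.9 CPM in IgG RIP, and 43.0 and 46.1 CPM in input. The catalytic subunit gene Csnk2a2 (0.52, adjusted p = 0.0822) and the ubiquitin ligase gene Fbxo9 (0.16, adjusted p = 0.678) did not pass. Over input 0 of the list were higher with DESeq2 size factors, library size alone, a mean count of at least 20 or the correction for gene length. Csnk2b was therefore not called in those settings, nor with any 1 of the CPEB4 RIP or input libraries left out. Its gene model is short, at length percentile 24.8 of the tested genes.

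Subunits of the mTOR complexes gave 0 calls among 8 genes in edgeR's test against either background, like Mtor itself. Of all tested genes 8.21% were called over IgG RIP and 12.7% over input, so nothing is read from 0 calls of 8. At a median of -0.44 over IgG RIP and 0.14 over input, their fitted values lay on both sides of 0. Deptor, an inhibitory subunit, had the smallest p, with 422 and 464 CPM in CPEB4 RIP, 600 and 851 CPM in IgG RIP, and 425 and 453 CPM in input (-0.71 over IgG RIP, edgeR adjusted p = 0.0575). The DESeq2 Wald test called 1 of the list lower over IgG RIP and 0 over input, where it called 2892 and 3479 genes in all.

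The regulators and substrates of mTOR complex 1 had calls for a pair of translational repressor genes, and the other substrates did not pass. Of 9 genes, 1 was higher over IgG RIP, where 4.79% of all tested genes were, and 2 were higher over input, where 8.0% were. None was lower, and the medians were 0.11 and 0.35. The translational repressor gene Eif4ebp1 had 679 and 638 CPM in CPEB4 RIP, 351 and 435 CPM in IgG RIP, and 339 and 402 CPM in input. It rose by 0.75 over IgG RIP (SE 0.16, edgeR adjusted p = 0.0366) and by 0.83 over input (SE 0.16, adjusted p = 0.0180) on the log2 scale. Its relative Eif4ebp2 had 31.7 and 23.3 CPM in CPEB4 RIP, 16.1 and 16.8 CPM in IgG RIP, and 9.46 and 9.45 CPM in input, and rose by 1.54 over input (SE 0.26, edgeR adjusted p = 0.0110), while at 0.74 over IgG RIP it did not pass (adjusted p = 0.119). The substrate genes Rps6kb1 (-0.12 and -0.27), Ulk1 (-0.12 and 0.45) and Larp1 (-0.16 and -0.18) did not pass over IgG RIP or over input. Tsc1, an upstream inhibitor of the complex, stood at -1.10 over input and did not pass (adjusted p = 0.0822). The list had 0 calls against either background without CPEB4 RIP replicate 1 or replicate 2, and 0 and 1 over input without input replicate 1 and replicate 2. With the correction for gene length it had 0 calls over IgG RIP and 1 over input.

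Partners of ATM, ATR and the DNA-dependent protein kinase included several that fell. Of 15 genes, 0 were higher, 4 were lower over IgG RIP and 5 were lower over input, at medians of -0.51 and -0.60. Of all tested genes 3.42% were called lower over IgG RIP and 4.70% over input. The Ku subunit gene Xrcc5, whose protein recruits the DNA-dependent protein kinase to broken ends, had 12.6 and 13.3 CPM in CPEB4 RIP, 31.1 and 32.6 CPM in IgG RIP, and 26.7 and 29.2 CPM in input. It fell by 1.30 over IgG RIP (SE 0.21, edgeR adjusted p = 0.0164) and by 1.11 over input (SE 0.21, 0.0163) on the log2 scale. Topbp1, an activator of ATR, had 7.37 and 4.62 CPM in CPEB4 RIP, 10.8 and 9.74 CPM in IgG RIP, and 22.0 and 23.5 CPM in input, and fell by 1.93 over input (SE 0.32, edgeR adjusted p = 0.0100). The substrate gene Trp53 fell by 0.80 over IgG RIP (SE 0.14, adjusted p = 0.0184) and by 0.54 over input (SE 0.14, 0.0408).

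The remaining calls of that list, named after their values were seen, were the second Ku gene Xrcc6 (-1.09 over IgG RIP and -1.19 over input), Rad50 (-1.76 over IgG RIP) and the ATR partner Atrip (-0.80 over input). Over input the count of 5 was 0 without any 1 of the CPEB4 RIP or input libraries and 9 without either IgG RIP replicate. Over IgG RIP the count of 4 was 0 without CPEB4 RIP replicate 1, CPEB4 RIP replicate 2 or input replicate 2. With the correction for gene length it was 0 in both comparisons.

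Genes that work with SMG1 in nonsense-mediated decay gave 0 calls among 9 in edgeR's test against either background. Of all tested genes 8.21% were called over IgG RIP and 12.7% over input, so nothing is read from 0 calls of 9. The medians were -0.39 over IgG RIP and 0.13 over input. The DESeq2 Wald test called 0 over IgG RIP and 1 over input, where it called 2892 and 3479 genes in all. Upf3b, a core decay factor, had 34.1 and 30.9 CPM in CPEB4 RIP, 34.0 and 62.2 CPM in IgG RIP, and 20.7 and 20.8 CPM in input. Its log2 fold change over input was 0.65 (adjusted p = 0.201).

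TRRAP is a kinase-like scaffold of the same family that lacks catalytic activity. Of 8 genes of TRRAP and its acetyltransferase partners, 1 was higher and 2 lower over IgG RIP, and the counts over input were also 1 and 2, at medians of -0.22 and -0.64. The shares of all tested genes were 4.79% higher and 3.42% lower over IgG RIP, and 8.0% higher and 4.70% lower over input. Trrap had 15.9 and 14.2 CPM in CPEB4 RIP, 26.3 and 33.4 CPM in IgG RIP, and 44.0 and 44.5 CPM in input. It fell by 0.99 over IgG RIP (SE 0.22, edgeR adjusted p = 0.0370) and by 1.56 over input (SE 0.22, 0.00586) on the log2 scale. Ing3, a reader subunit, fell by 0.77 over IgG RIP and by 0.69 over input, and the acetyltransferase gene Kat2b rose by 1.18 over IgG RIP and 0.99 over input. With any 1 of the CPEB4 RIP or input libraries left out, the list had 0 calls over IgG RIP, and over input it had 0 higher and at most 1 lower. With the correction for gene length the 2 lower calls over input became 0 and 1 remained higher. Trrap has one of the longest gene models, at length percentile 99.4, and under that correction 0 genes of the whole table were called over IgG RIP.

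The other complexes that use RUVBL1 and RUVBL2, INO80 and SRCAP, gave 0 calls among 14 genes in edgeR's test against either background. Of all tested genes 8.21% were called over IgG RIP and 12.7% over input. The medians of the list were 0.23 over IgG RIP and 0.14 over input. The DESeq2 Wald test called 0 over IgG RIP and 1 over input, where it called 2892 and 3479 genes in all. Yeats4, a chromatin reader, was at 0.98 over input and did not pass (adjusted p = 0.0713).

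Telomere genes were listed because TELO2 takes its name from telomere maintenance in yeast. Of 10 genes 9 were tested, with 1 higher and 1 lower over IgG RIP and 0 higher and 1 lower over input. At 1 call of 9 these counts are near the shares of all tested genes, 4.79% and 3.42% over IgG RIP and 8.0% and 4.70% over input. Acd, which encodes the shelterin protein TPP1, had 31.2 and 27.6 CPM in CPEB4 RIP, 10.2 and 14.7 CPM in IgG RIP, and 18.4 and 18.7 CPM in input. It rose by 1.23 over IgG RIP (SE 0.26, edgeR adjusted p = 0.0342) on the log2 scale, and at 0.66 over input it did not pass (adjusted p = 0.143). Tert, the telomerase catalytic subunit gene, had 0 counts in both CPEB4 RIP libraries, against 23 and 14 counts in IgG RIP. A floor of 3 counts per CPEB4 RIP library lay 8.64-fold below the IgG RIP mean and 4.18-fold below the input mean. The counting error of those means is left out, so these are not bounds. The edgeR adjusted p was 0.0366 and 0.0409. Tert passed the filter on low counts only through IgG RIP and input, so it could only be called lower. Input had 0.761 and 0.937 CPM of Tert. The call of Tert was lost in both comparisons with any 1 of the CPEB4 RIP or input libraries left out, with the replicate block, with the correction for gene length and by limma on FPKM, and over IgG RIP also with only the 4 libraries compared. That of Acd over IgG RIP was lost without CPEB4 RIP replicate 1 or replicate 2, with the correction for gene length and with only the 4 libraries compared. The list's median was -0.44 over IgG RIP and -0.04 over input.

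**Figure D5:**
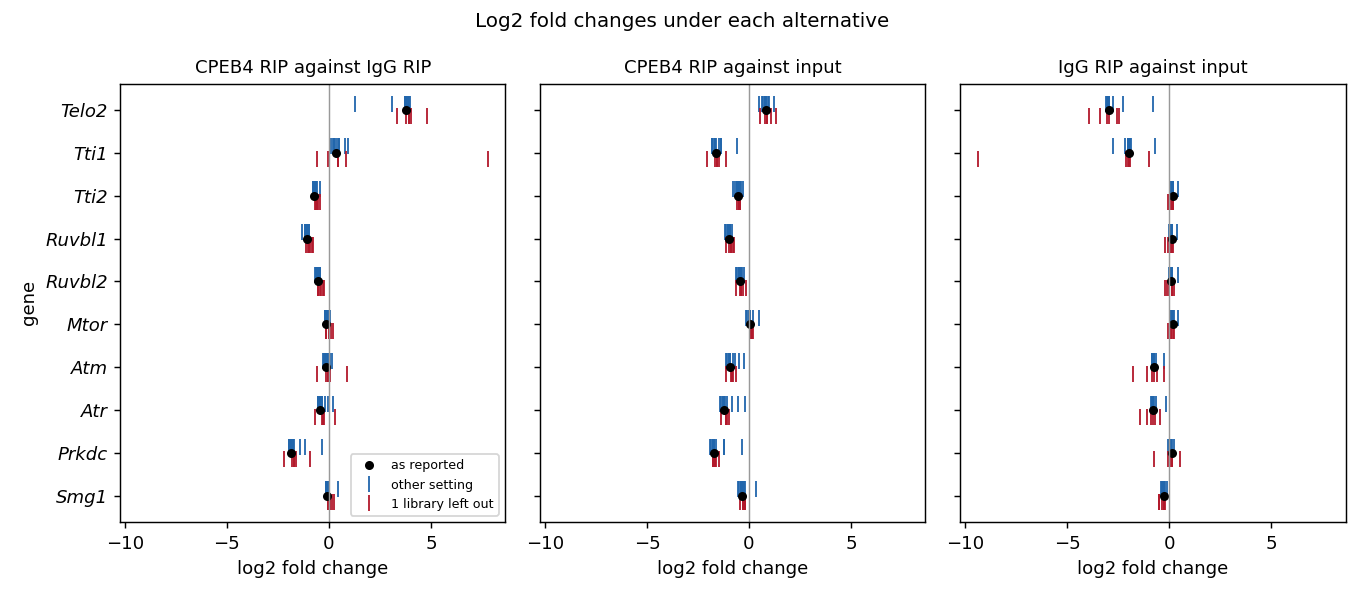
Log2 fold changes of the 10 messages as reported (points) and under each alternative (ticks), with the fits that leave out 1 library in red. Telo2 is above 0 in all settings of both comparisons with CPEB4 RIP, and Tti1 spans the widest range, since 1 IgG RIP library has no counts for it.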

How the data were processed

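Messages of mouse muscle stem cells were measured by SMART-seq2 in 6 libraries. HISAT2, mm10 and featureCounts are named in the submitters' processing notes, without versions. The annotation, the strand setting and the handling of multiply matching reads are not named in any source used here. The authors deposited raw counts per gene. They also deposited FPKM values, and the library total behind these is unknown. Libraries held 9018323 to 20843042 counts, a depth that limits only counting error.

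The main fit used edgeR 4.0.16 in R 4.3.3, with filterByExpr (at least 10 counts, total of at least 15), TMM scaling, and glmQLFit and glmQLFTest on all 6 libraries with group as the only term and 3 residual degrees of freedom. Tests were two-sided, with Benjamini-Hochberg adjustment over 18054 genes and a threshold of 0.05. SE was the absolute log2 fold change over the square root of F. FPKM served to compare levels between genes, and limma 3.58.1 was run on its log2 values with pseudocounts of 1 and 0.1. Counts divided by FPKM gave the relative length of a gene model. Positions are those of RefSeq on GRCm38, which matched 10 of 10 members.

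All 10 members are named. Of each list, up to 3 genes with the smallest p in any comparison qualified, and not all are printed. Likeness to Telo2 used a prior count of 2, and the 5 highest values were named. The members and lists were chosen with earlier results of these data known. As alternatives, scaling was done with DESeq2 size factors or with library size only, mitochondrial genes were removed, the filter was dropped or set to a mean count of 20, and the DESeq2 Wald test was run (DESeq2 1.42.0). A replicate block, a gene length offset (loess, span 0.3), limma on FPKM, fits of only the 4 libraries compared and fits leaving out each library in turn were also made. The edgeR, DESeq2 and limma steps were tested on simulated data. The 3 groups share replicate numbers, which the labels do not tie to animals.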

Additional observations from a re-analysis of the deposited data

How the results depend on the processing

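Over 17 alternatives, 429 of 510 fold changes of the 10 messages kept their direction and side of the threshold, 35 passed it newly, 10 lost it and 36 changed sign. The cause of these changes was not tested, except where fewer samples or another filter are the alternative itself. Telo2 was above 0 in every alternative over IgG RIP and over input.

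Genes past the test over IgG RIP numbered 1482 as reported, 2428 with no low-count filter, 2892 by DESeq2, 0 with the gene length offset and 973 with only the 4 libraries compared. Leaving out 1 library gave 0 (without CPEB4 RIP replicate 2) to 7710 (without IgG RIP replicate 1). It gave 204 without CPEB4 RIP replicate 1, 7405 without IgG RIP replicate 2, and 970 and 972 without input replicate 1 and replicate 2. Over input they numbered 2294 as reported, 3479 by DESeq2, 661 with the length offset, 7340 with only the 4 libraries, and 117 to 7966 with 1 library left out. For IgG RIP against input, 0 as reported became 457 with no filter, 706 by DESeq2, 25 with the replicate block, 1 and 5 by limma with pseudocounts of 1 and 0.1, and up to 6657 with 1 library left out (range 0 to 6657). The lone library of a reduced group was assumed to vary like the others.

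Values that changed sign over IgG RIP were, with the length offset, Mtor 0.075, Atm 0.16, Atr 0.20 and Smg1 0.47. By limma, Atm was 0.031 (pseudocount 0.1), and Smg1 was 0.014 and 0.024 (pseudocounts 1 and 0.1). Smg1 was 0.0071 without mitochondrial genes and 0.0063 with no filter. Over input, Mtor was -0.15 by library size alone and -0.086 at a mean count of at least 20, and Smg1 was 0.36 with the length offset. For IgG RIP against input, library size alone gave Ruvbl1 -0.0087 and Ruvbl2 -0.015, and limma with a pseudocount of 0.1 gave Prkdc -0.047. With 1 library left out, the ranges over IgG RIP were -0.58 to 7.78 for Tti1, -0.13 to 0.20 for Mtor, -0.58 to 0.91 for Atm, -0.67 to 0.28 for Atr and -0.061 to 0.25 for Smg1. The value of 7.78 sets Tti1 against a library with 0 counts, depends on the prior count and is no bound. For IgG RIP against input the ranges were -0.036 to 0.19 for Tti2, -0.19 to 0.22 for Ruvbl1, -0.22 to 0.24 for Ruvbl2, -0.073 to 0.24 for Mtor and -0.74 to 0.56 for Prkdc.

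Scaling moved the median of all genes over input to -0.27 by library size alone, against -0.06 as reported, and the genes past the test to 1093 higher and 1409 lower, against 1445 and 849. Over IgG RIP library size alone gave 903 higher and 1026 lower and removal of mitochondrial genes 1114 and 564, against 864 and 618 as reported. For the replicate block, the differences between replicate 1 and replicate 2 correlated at 0.13 for CPEB4 RIP and IgG RIP, -0.02 for CPEB4 RIP and input, and 0.07 for IgG RIP and input, which did not show the numbers to pair the samples. The block gave 1850, 2615 and 25 genes past the test in the 3 comparisons. Counting error limits the fold change of Telo2 over IgG RIP, at 19 and 10 counts in IgG RIP. The spread between those libraries, at 2.03 and 0.755 CPM, limits it too. Both limits also hold for Tti1, at 27 and 0 counts in IgG RIP.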
